A study of Mus musculus with 61 samples.

Results

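Ngn3-negative cells are the cells of mouse pancreatic ductal organoids that carried the Pdx1 reporter, the MafA reporter or both, but not the reporter of Ngn3, although they grew in cultures infected with an Ngn3 vector. They were chosen by the fluorescence for which they were sorted, and they make up 15 of the 32 samples of the series and 29 of its 61 sequencing libraries. Organoids from C57BL/6 mice were infected with doxycycline-inducible lentiviral vectors for GFP-Ngn3, LSSOrange-Pdx1 and tdTomato-MafA together with a vector for the transactivator, kept in doxycycline for 8 days and sorted into pools of 50 cells. In WT cultures the vector carried wild-type Ngn3, and in 6SA cultures it carried 6SA Ngn3, in which serines that are targets of cyclin-dependent kinases are replaced by alanine. The 6SA cultures gave 2 samples of Pdx1 cells, 3 of MafA cells and 3 of Pdx1+MafA cells, and the WT cultures gave 2, 2 and 3. Both kinds of culture thus shared the Pdx1 and MafA vectors, the transactivator and doxycycline, and uninfected cells were not analysed here. Replicates 1 and 2 were at passage 2 and replicate 3 at passage 5. Among MafA cells replicate 3 was in the 6SA group alone, so there passage and culture cannot be told apart for that sample. The labels do not say whether same-numbered samples came from separate cultures. The paper describes organoids infected with all vectors at once and then sorted by colour. Same-numbered samples of WT or of 6SA cultures may thus be sorted fractions of the same culture. The fits and the intervals count them as separate samples. Their p-values measure the spread between these samples, and not necessarily that between cultures. With counts summed over the reporters within each culture and number, the main test described below gave 135 genes at an unadjusted p under 0.05. Separate samples gave 537.

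Ngn3, encoded by Neurog3, is the basic helix-loop-helix factor that commits pancreatic progenitors to the endocrine fate. Cells that express it also raise Notch ligands, and Notch signalling in their neighbours induces Hes1, which represses Neurog3. Ductal organoids are proliferating epithelium that keeps duct keratins and Sox9. The comparison of Ngn3-negative cells between 6SA and WT cultures asks whether cells without the factor differed with the form of Ngn3 that was present elsewhere in the culture.

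The 29 libraries held between 1373561 and 8862096 counts assigned to genes, with a median of 5439875. All of them passed the limits of over 1000000 gene counts, over 10000 detected genes and under 25% spike-in counts, and technical repeats summed to samples of 3339874 to 18555026 counts. The 8 samples from 6SA cultures held 92525468 counts in all and the 7 from WT cultures 56682735. Levels are counts per 1000000 gene counts (CPM) after scaling, and 3 counts, taken as the detection floor, correspond to between 0.162 and 0.898 CPM per sample. Counting floors cover counting error only.

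The replicate number separated the samples far more than the culture did. Over the 9643 genes with a mean of at least 10 CPM, it took 51.3% of the variance of log2(CPM + 1), the reporter 9.52%, the culture 4.60% and the remainder 32.9%. Component 1, with 44.0% of the variance, placed the 6 samples of replicate 1 between -63.9 and -26.9 and the other samples above 0. The 6SA MafA sample of replicate 3 stood apart on component 2, at -84.1 where the next lowest sample was at -12.7. It also had the fewest detected genes (14574) and the largest mitochondrial share of counts, 14.4% where the others had 3.97% to 12.5%. List results that rest on it are therefore given also without it.

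**Figure D1:**
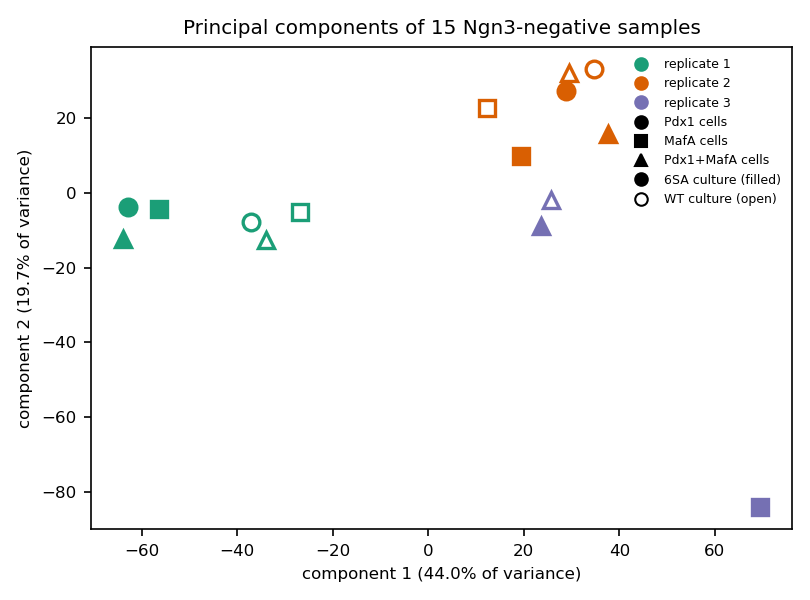
First and second principal components of log2(CPM + 1) in the 15 Ngn3-negative samples, with 1 point per sample; colour marks the replicate number, shape the reporter, and filled points are 6SA cultures. Samples group by replicate number along component 1, and the 6SA MafA sample of replicate 3 lies alone at -84.1 on component 2.

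The sort left very little Neurog3 in these cells. In the fit over all 12 conditions, Neurog3 lay between 7.87 and 329 CPM (median 62.6) in the 17 samples with the Ngn3 reporter and between 0 and 0.788 CPM in the 15 without it, a log2 difference of 8.63 (edgeR quasi-likelihood test, Benjamini-Hochberg adjusted p = 4.57e-11). Chga, encoding chromogranin A of secretory granules, had a median of 969 CPM with the reporter and 1.54 CPM without it, and Sst, encoding somatostatin, had 5787 and 3.63 CPM. Of 32 endocrine genes 29 were called higher with the Ngn3 reporter and 0 lower, beside 11.1% of all 24004 genes called higher and 10.5% called lower. Of 25 duct genes 18 were lower with the reporter. The labelled ductal cells were endocrine-poor and duct-rich beside their Ngn3-positive counterparts.

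Markers of other cell types were scarce. Among 18 acinar genes 7 had no count in any of the 15 samples and 10 had 10 counts or fewer in total, and the summed level of the list ranged from 2.55 to 90.6 CPM in 6SA and from 0.872 to 47.8 CPM in WT samples. Gp2, a zymogen granule membrane protein, reached 86.2 CPM and was at 0 in the 3 samples of replicate 3. Its median was 2.95 CPM in 6SA and 0.523 CPM in WT samples, where the medians of the whole list were 13.7 and 12.1 CPM. The 12 mesenchymal genes summed to 0.418 to 13.6 CPM in 6SA and 0.445 to 15.9 CPM in WT samples, and the 8 endothelial genes to 0.260 to 2.17 and 0 to 0.920 CPM. The 13 immune genes summed to 10.97 to 26.3 CPM in 6SA and 2.33 to 24.6 CPM in WT samples. Most of that was Cd68, a lysosomal protein that is not restricted to immune cells (13.5 ± 2.73 and 9.59 ± 5.46 CPM), whereas the leukocyte gene Ptprc had 0 counts and the endothelial genes Cdh5 and Kdr had 0 counts. The smooth muscle actin gene Acta2 was at 0.626 ± 0.683 CPM in 6SA and 2.63 ± 2.57 CPM in WT samples (log2 fold change -2.24, unadjusted p = 0.0175, not called). The part of these other cells in the results below was not tested.

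The 3 reprogramming factors did not differ detectably between the cultures. Neurog3 had 8, 2 and 0 counts in the 6SA MafA samples, 10 and 7 in the 6SA Pdx1 samples and 7, 1 and 0 in the 6SA Pdx1+MafA samples. In WT cultures it had 1 and 0 counts in MafA cells, 2 and 0 in Pdx1 cells and 3, 4 and 1 in Pdx1+MafA cells. The groups overlap, and at 0.309 ± 0.257 CPM in 6SA and 0.175 ± 0.221 CPM in WT samples the log2 fold change of 1.20 had a 95% interval from -0.89 to 3.29. Pdx1, a factor of pancreatic progenitors and beta cells, ranged from 10.5 to 34.7 CPM in Pdx1 cells, 3.89 to 17.6 CPM in MafA cells and 12.8 to 33.6 CPM in Pdx1+MafA cells. These ranges overlap between reporters, and cells with the Pdx1 reporter were above MafA-only cells by 0.85 on the log2 scale (unadjusted p = 0.0788). Between cultures Pdx1 was at 18.5 ± 11.003 CPM in 6SA and 16.8 ± 7.88 CPM in WT samples, a log2 fold change of 0.12 with an interval from -0.75 to 0.99. Mafa, encoding a beta-cell factor, had at most 1 count in the Pdx1-only samples, 1 to 12 counts in MafA cells and 0 to 35 in Pdx1+MafA cells. MafA-only cells were above Pdx1-only cells by 4.91 on the log2 scale (unadjusted p = 0.00809, adjusted p = 1), and the mean level was 0.752 ± 1.01 CPM in 6SA and 0.770 ± 1.41 CPM in WT samples. Whether the counts of Neurog3, Pdx1 and Mafa came from the vectors or from the genes of the cell was not tested.

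In the average over the 3 reporters, neither edgeR nor DESeq2 called a gene between Ngn3-negative cells of 6SA and WT cultures. This holds for all 15 samples, with a filter on low counts and without the replicate number as a block. With the difference taken within each reporter and averaged, edgeR's quasi-likelihood test called 0 of 20168 genes (0%) at a Benjamini-Hochberg adjusted p under 0.05, and the lowest adjusted p was 0.9999. At an unadjusted p under 0.05 there were 537 genes, 2.66% of those tested, of which 286 (1.42%) were higher in 6SA and the others (1.24%) lower. DESeq2 also called 0 genes, with 527 at an unadjusted p under 0.05 and a lowest adjusted p of 0.338. With the replicate number as a block edgeR again called 0 genes, while the number at an unadjusted p under 0.05 was 1057, or 5.24%, and the lowest adjusted p was 0.887. DESeq2 with the block, an alternative chosen after seeing the data, called 53. Where no other tool or setting is named below, calls are those of edgeR with the filter, all 15 samples and no block, averaged over the reporters. All genes together lay slightly above 0, with a median log2 fold change of 0.05 and 11083 genes (55%) above 0.

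For most well-measured genes the data excluded large differences but not small ones. Among the 9643 genes with at least 10 CPM the median standard error of the log2 fold change was 0.303 (0.230 with the replicate block). Without the block the 95% interval excluded a 2-fold difference in either direction for 6719 of them (69.7%) and a 4-fold difference for 9463 (98.1%). Above 100 CPM, 1689 of 1890 genes (89.4%) excluded a 2-fold difference. Between 1 and 10 CPM only 4.41% of the genes with an interval did so.

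**Figure D2:**
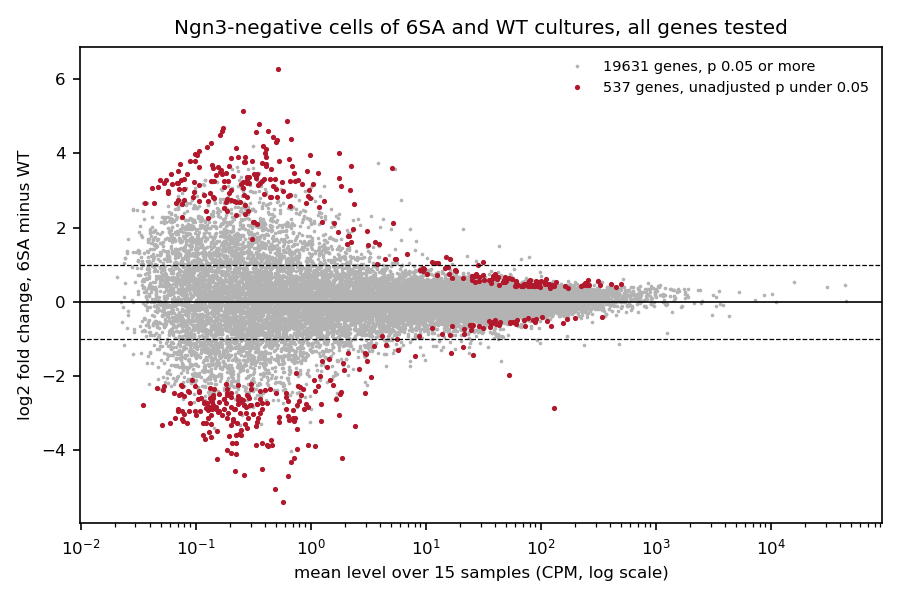
Log2 fold change of 6SA minus WT, averaged over the 3 reporters, against the mean CPM over 15 samples on a log axis, with 1 point for each of 20168 genes; red points have an unadjusted p under 0.05 and dashed lines mark 2-fold. The spread narrows with level, 537 genes are red, and 0 genes passed the adjusted threshold.

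Within single populations edgeR called no gene for the culture difference, and DESeq2 called 3. In Pdx1 cells (2 against 2 samples) edgeR called 0 genes, with 131 at an unadjusted p under 0.05; in MafA cells (3 against 2) 0 genes, with 425; and in Pdx1+MafA cells (3 against 3) 0 genes, with 331. DESeq2 called 0 genes in Pdx1 cells, 2 in MafA cells and 1 in Pdx1+MafA cells. The pair in MafA cells was Fgb, encoding the fibrinogen beta chain, which was higher in 6SA, and the unclassified transcript AA474408, which was lower. The DESeq2 log2 fold change of Fgb was 22.4, where edgeR without a filter on low counts gave 9.53. The 1 gene in Pdx1+MafA cells was Cidea, encoding a lipid droplet protein, higher in 6SA. The test of whether the difference varied between the reporters called 0 genes in edgeR (205 at an unadjusted p under 0.05) and 0 in DESeq2.

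Whether the culture difference was unequal in cells without and with the Ngn3 reporter depended on the tool for 5 genes. In the fit over all 12 conditions the difference between both effects was called for 0 of 24004 genes by edgeR, with 647 (2.70%) at an unadjusted p under 0.05. DESeq2 called 5 genes for it, Rsad2, Fbn1, Kirrel2, Esyt3 and Cyp2s1. Within the Ngn3-positive cells edgeR called 0 genes between 6SA and WT cultures, with 1422 (5.92%) at an unadjusted p under 0.05.

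A few genes separated the cultures with no overlap of samples. Of 20168 genes tested, 4 (0.0198%) had every 6SA sample above every WT sample and 1 (0.00496%) had every one below. Ginm1, a membrane protein gene, ranged from 90.6 to 162 CPM in 6SA samples (median 101) and from 68.7 to 83.8 CPM in WT samples (median 79.8), a log2 fold change of 0.52 (interval 0.11 to 0.94). Plrg1, a component of the spliceosome, was at 107 ± 10.2 and 82.3 ± 11.1 CPM (0.41). Atg5, required for autophagosome formation, was at 68.1 ± 6.9997 and 50.0 ± 5.49 CPM (0.43), and Trub1, a pseudouridine synthase, at 30.6 ± 7.57 and 19.0 ± 3.00 CPM (0.67). In the other direction Ckap4, an endoplasmic reticulum membrane protein, was at 24.4 ± 8.34 CPM in 6SA and 40.0 ± 8.36 CPM in WT samples (-0.70, interval -1.39 to -0.02). None of these 5 genes passed the adjusted threshold. They were singled out for this separation, which is a description. Among 20168 genes some can separate by chance, and the number expected was not worked out.

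Among the 10 genes with the lowest unadjusted p in the higher direction, none of them called, Entpd2 was the best measured. Entpd2 (ENSMUSG00000015085, GRCm38 chromosome 2, 25395874 to 25401321) encodes an ectonucleotidase that hydrolyses extracellular ATP. It ranged from 14.4 to 37.7 CPM in 6SA samples (median 21.2) and from 4.88 to 15.3 CPM in WT samples (median 9.59). The ranges overlap at the edge, and the 6SA sample was the higher in all 7 same-numbered pairs. The means were 22.2 ± 7.15 and 9.64 ± 3.24 CPM, a log2 fold change of 1.15 (interval 0.47 to 1.84, unadjusted p = 0.00272), with log2 fold changes between 1.001 and 1.38 within the 3 reporters. In Ngn3-positive cells the log2 fold change of Entpd2 between the cultures was 0.73.

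The rest of that group was scarce. Depdc7 was at 3.22 ± 2.62 CPM in 6SA and 1.14 ± 1.35 CPM in WT samples and had the lowest unadjusted p (0.000766). Cidea was at 5.46 ± 2.01 and 2.20 ± 1.94 CPM, and its log2 fold change was 0.43 in Pdx1, 0.72 in MafA and 3.54 in Pdx1+MafA cells. Gcnt4, encoding a glycosyltransferase that branches O-glycans, had 98 counts in 7 of 8 6SA samples (0 to 47 per sample) and 0 counts in the 7 WT samples. Against a floor of 3 counts over the WT group, its pooled 6SA level of 1.06 CPM was 20.0-fold higher. A single 6SA sample held 47 of the 98 counts. The ratio covers counting error only and does not bound the spread between samples. The long noncoding RNA gene A430106G13Rik was at 3.15 ± 3.46 and 0.339 ± 0.448 CPM, and Akr1b7, an aldo-keto reductase gene, at 1.57 ± 1.64 and 0.208 ± 0.379 CPM. Gm25082, Gm15568, Gm37023 and Gm38158, all noncoding or unclassified, had means of 0.237 to 1.45 CPM in 6SA samples.

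The 10 genes with the lowest unadjusted p in the lower direction were mostly near the detection floor, and none was called. AA474408 rested on 1 sample: the WT MafA sample of replicate 2 held 1858 CPM, and the highest 6SA sample 12.2 CPM. The other 14 samples held 2.32 to 20.7 CPM, and the fitted log2 fold change of -2.88 rests on that sample. Gm10800 was at 9.28 ± 4.07 CPM in 6SA and 24.8 ± 16.7 CPM in WT samples (-1.40, interval -2.29 to -0.51). Cybb, encoding a subunit of the phagocyte NADPH oxidase, was at 0.998 ± 1.85 and 2.87 ± 2.39 CPM, and Nfe2, encoding a blood-lineage factor, at 0.0130 ± 0.0368 and 1.04 ± 1.96 CPM. Gm43428, F830112A20Rik, Lrrc74b, Gm15956, Ncan and Gm22716 had means under 0.05 CPM in 6SA samples and 0.231 to 1.21 CPM in WT samples.

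No gene of the Notch pathway, which carries signals between neighbouring cells, was called between the cultures. Of 25 listed genes 21 were tested and 0 were called, with 9 above 0 and 12 below. The median log2 fold change was -0.07 beside 0.05 for all genes, and 0.05 without the 6SA MafA sample of replicate 3. The 95% interval excluded a 2-fold difference for 9 of the 21, and for 8 of the 10 with at least 10 CPM. No member was higher, or lower, in all 7 same-numbered pairs. Over 29 alternative settings the list median ranged from -0.17 to 0.10.

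Among ligands, Jag1 ranged from 61.4 to 101 CPM in 6SA samples (median 69.9) and from 46.0 to 111 CPM in WT samples (median 91.0). The groups overlap throughout, with a log2 fold change of -0.22 (interval -0.68 to 0.25). Dll1, the ligand associated with endocrine progenitors, was at 24.6 ± 11.7 and 26.5 ± 10.98 CPM (-0.07, interval -0.85 to 0.71), and Jag2 at 8.70 ± 5.76 and 7.33 ± 3.72 CPM. Dll4 had means under 1 CPM, Hes5 had 0 counts, and Dll3, Hey2 and Dlk1 had too few counts to test. The receptor genes Notch1 (29.5 ± 10.6 and 28.4 ± 7.09 CPM, 0.06) and Notch2 (50.6 ± 14.6 and 55.3 ± 12.5 CPM, -0.20, interval -0.67 to 0.26) were close in both. So was Rbpj, the DNA-binding factor of the pathway, at 20.0 ± 3.65 and 21.2 ± 6.42 CPM (-0.10, interval -0.65 to 0.45).

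Hes1, the best-known Notch target and a repressor of Neurog3, followed the replicate number. It lay between 17.3 and 30.5 CPM in the 6 samples of replicate 1, between 148 and 349 CPM in the 6 of replicate 2 and between 17.0 and 74.2 CPM in the 3 of replicate 3. By culture it ranged from 17.0 to 349 CPM in 6SA (median 47.9) and from 17.3 to 172 CPM in WT samples (median 61.5). The log2 fold change was 0.13 with an interval from -1.45 to 1.72, so that a 2-fold difference in either direction was not excluded without the block. With the replicate block the log2 fold change was -0.00016 with an interval from -0.48 to 0.48, which excluded it. Hes6, an antagonist of Hes1, was steadier at 70.5 ± 17.0 and 66.9 ± 15.8 CPM (0.11, interval -0.35 to 0.58). Hey1 was at 4.69 ± 3.97 and 3.19 ± 3.68 CPM.

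**Figure D3:**
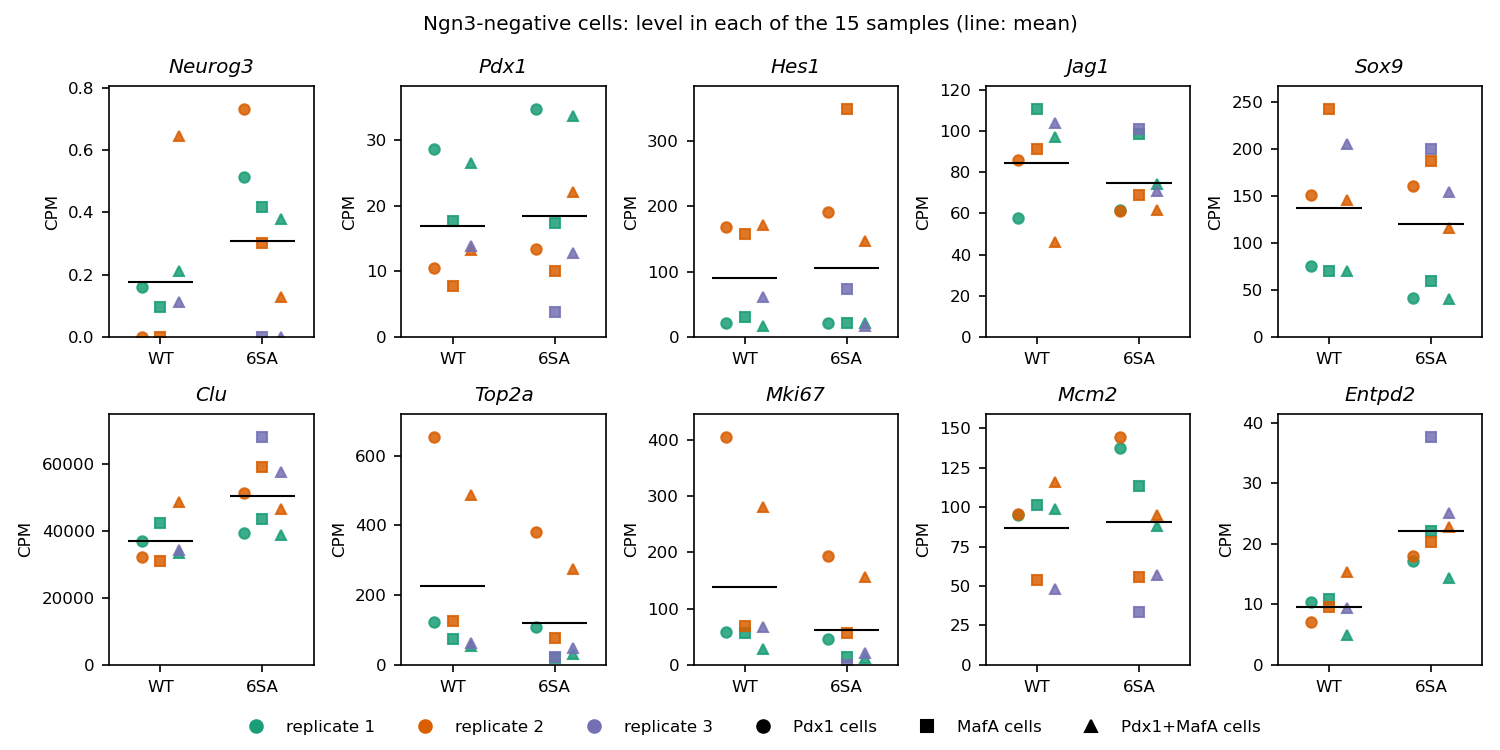
CPM of 10 genes in each of the 15 Ngn3-negative samples, WT cultures on the left and 6SA cultures on the right of each panel; colour marks the replicate number, shape the reporter and the line the mean of the group. Hes1, Top2a and Mki67 are highest in replicate 2, and Entpd2 is the gene whose 6SA samples sit mostly above the WT samples, at 14.4 to 37.7 against 4.88 to 15.3 CPM.

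Duct identity was high in both cultures. All 25 listed duct genes were tested, 0 were called, 15 lay above 0 and 10 below, and the median log2 fold change was 0.08 (0.13 without the 6SA MafA sample of replicate 3). The interval excluded a 2-fold difference for 14 of 25. The keratin genes Krt7, Krt8, Krt18 and Krt19 had log2 fold changes of 0.16, 0.29, 0.29 and 0.17, with Krt19 at 1042 ± 217 and 914 ± 284 CPM.

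Clu, encoding the secreted chaperone clusterin, ranged from 38689 to 68170 CPM in 6SA samples (median 48899) and from 30882 to 48558 CPM in WT samples (median 34376). The ranges overlap, with the 6SA sample higher in 6 of 7 pairs, and the log2 fold change was 0.44 (interval -0.03 to 0.90, unadjusted p = 0.0629). Spp1, encoding osteopontin, was at 19129 ± 13224 and 12263 ± 4024 CPM (0.53, interval -0.26 to 1.31). Its 6SA range of 5583 to 48211 CPM took in the whole WT range. Sox9, the duct and progenitor factor, was at 120 ± 65.2 and 137 ± 69.1 CPM (-0.22, interval -1.11 to 0.67). It was lower in 6SA in 6 of 7 pairs, and with the replicate block the value was -0.42 at an unadjusted p of 0.0217, which did not pass the adjusted threshold. Sox9 ranged from 41.0 to 75.6 CPM in replicate 1, 116 to 242 CPM in replicate 2 and 154 to 205 CPM in replicate 3.

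Most of the endocrine genes were scarce in both cultures, with Cpe and Ptprn as the exceptions by mean level. Of 32 listed genes 26 were tested and 0 called, with a median log2 fold change of -0.11 (-0.08 without the 6SA MafA sample of replicate 3). Chga was at 1.54 ± 1.33 CPM in 6SA and 1.45 ± 1.46 CPM in WT samples, and Neurod1, a direct target of Neurog3, at 0.0492 ± 0.0568 and 0.106 ± 0.123 CPM. Sst was at 6.03 ± 9.39 and 5.54 ± 4.55 CPM, and the 6SA Pdx1+MafA sample of replicate 3 alone held 28.9 CPM. Ins1 and Ins2 had 0 counts in all 15 samples and Gcg had 5 counts in total. Single samples also set Iapp, the amylin gene, which reached 42.7 CPM in the 6SA Pdx1 sample of replicate 1, and Cryba2, which reached 41.3 CPM in the WT Pdx1+MafA sample of replicate 3. Cpe and Ptprn, which had the highest mean CPM of the list, were at 60.7 ± 27.7 and 62.3 ± 22.8 CPM and at 12.5 ± 10.4 and 16.3 ± 16.6 CPM.

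Of 15 beta-cell genes 10 were tested and 0 called, with a median log2 fold change of 0.46 (0.39 without the 6SA MafA sample of replicate 3) that rested on genes at low level. Abcc8, a subunit of the ATP-sensitive potassium channel, was at 7.61 ± 12.2 and 8.14 ± 12.4 CPM. It was highest in the 4 samples of replicate 1 with the Pdx1 reporter, at 18.7 to 33.7 CPM, whereas the 2 MafA-only samples of replicate 1 held 0.195 and 1.299 CPM and the samples of replicates 2 and 3 at most 3.86 CPM. Slc2a2, the glucose transporter gene, was at 0.606 ± 0.794 and 0.0785 ± 0.142 CPM. Ero1lb, an oxidase of the endoplasmic reticulum, was at 6.75 ± 4.92 and 5.89 ± 3.69 CPM.

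Cell cycle genes leaned lower in 6SA cultures, and edgeR called none of them in the average over the reporters. All 30 listed genes were tested and 0 were called, 26 lay below 0, and the median log2 fold change was -0.58 beside 0.05 for all genes (-0.42, with 24 below 0, without the 6SA MafA sample of replicate 3). Over 29 alternative settings the median ranged from -1.16 to -0.06, and the value nearest 0, with 19 of 30 below 0, came without the WT Pdx1+MafA sample of replicate 2. The lean was uneven: the 18 genes that act in mitosis all lay below 0, between -1.22 and -0.30 with a median of -0.85, whereas the 12 genes that act in DNA replication had 8 below and 4 above 0 and a median of -0.09 (0.01, with 6 below 0, without the 6SA MafA sample of replicate 3). This division of the list was made after the values were seen. Without the block no interval of the 18 mitosis genes excluded a 2-fold difference.

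Top2a, the topoisomerase that untangles chromosomes, ranged from 21.1 to 381 CPM in 6SA samples (median 62.4) and from 55.4 to 655 CPM in WT samples (median 122). The groups overlap widely, and the 6SA sample was the lower in all 7 pairs. The log2 fold change was -0.92 (interval -2.22 to 0.37, unadjusted p = 0.149), and with the replicate block -0.84 at an unadjusted p of 0.00213. Mki67, the proliferation antigen, was at 62.4 ± 72.4 CPM in 6SA and 138 ± 145 CPM in WT samples, and at 0 in the 6SA MafA sample of replicate 3. Its log2 fold change was -1.12 (with the block -1.31, unadjusted p = 0.00585). Both genes were highest in replicate 2, where Top2a lay between 76.6 and 655 CPM.

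Cenpe, a kinetochore motor, was at 24.1 ± 28.9 and 47.3 ± 36.5 CPM (-1.22). Its log2 fold change was -0.28 in Pdx1, -2.63 in MafA and -0.74 in Pdx1+MafA cells. Without a filter on low counts edgeR called Cenpe lower in MafA cells (-2.63, adjusted p = 0.0204). Birc5, encoding survivin of the chromosomal passenger complex, was at 29.3 ± 40.2 and 50.6 ± 46.8 CPM (-0.996), and Kif20a, a kinesin of cytokinesis, at 17.1 ± 19.4 and 33.3 ± 23.2 CPM (-1.05). Of the 18 genes 8 were lower in 6SA in all 7 pairs, beside 1.06% of all genes: Mki67, Top2a, Ccnb1, Aurka, Cenpe, Cenpf, Kif20a and Birc5. With the replicate block 15 of the 18 had an unadjusted p under 0.05, beside 5.24% of all genes, with a median of -0.97, and 0 passed the adjusted threshold of edgeR. DESeq2 with the replicate block, an alternative chosen after seeing the data, called 53 genes, among them Cenpe (-1.38, adjusted p = 0.0472) and Birc5 (-1.64, adjusted p = 0.0497). The 53 also held Fndc8 at 18.4 and Lrrtm1 at -15.1, where edgeR without a block gave -5.40 to 6.29 over all genes. Counts summed over the reporters within each culture and replicate number gave 0 called genes in edgeR with the replicate block, with a lowest adjusted p of 0.302.

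Replication genes leaned neither way. Mcm2, a subunit of the replicative helicase, ranged from 33.3 to 145 CPM in 6SA (median 91.4) and from 48.4 to 116 CPM in WT samples (median 95.9). The groups overlap, with a log2 fold change of 0.08 (interval -0.53 to 0.68). Pcna, the sliding clamp, was at 77.9 ± 41.7 and 72.3 ± 28.4 CPM (0.16), and Mcm6 at 115 ± 68.3 and 127 ± 86.3 CPM (-0.10). With the replicate block 0 of the 12 had an unadjusted p under 0.05.

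As a mean of log2(CPM + 1), the 18 mitosis genes were lower in 6SA in 6 of 7 same-numbered pairs, by -1.65 to 0.13 with a median of -0.67. The exception was the pair of MafA samples of replicate 2, at 4.54 in 6SA and 4.41 in WT. The 12 replication genes were lower in 3 of 7 pairs, with differences from -0.79 to 0.80. The level of the mitosis genes followed the replicate number, with medians of 4.38 in replicate 1, 6.49 in replicate 2 and 3.29 in replicate 3. The lowest sample, at 0.932, was the 6SA MafA sample of replicate 3, which has no WT partner. Without it the 18 genes still all lay below 0, with a median log2 fold change of -0.68. The mitochondrial share of counts was also lower in 6SA in 6 of 7 pairs, with the pair of Pdx1+MafA samples of replicate 2 as the exception, and the total of gene counts was higher in 6 of 7. The part of these in the result was not tested. By reporter the median of the mitosis genes was -0.27 in Pdx1, -1.22 in MafA and -1.01 in Pdx1+MafA cells.

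**Figure D4:**
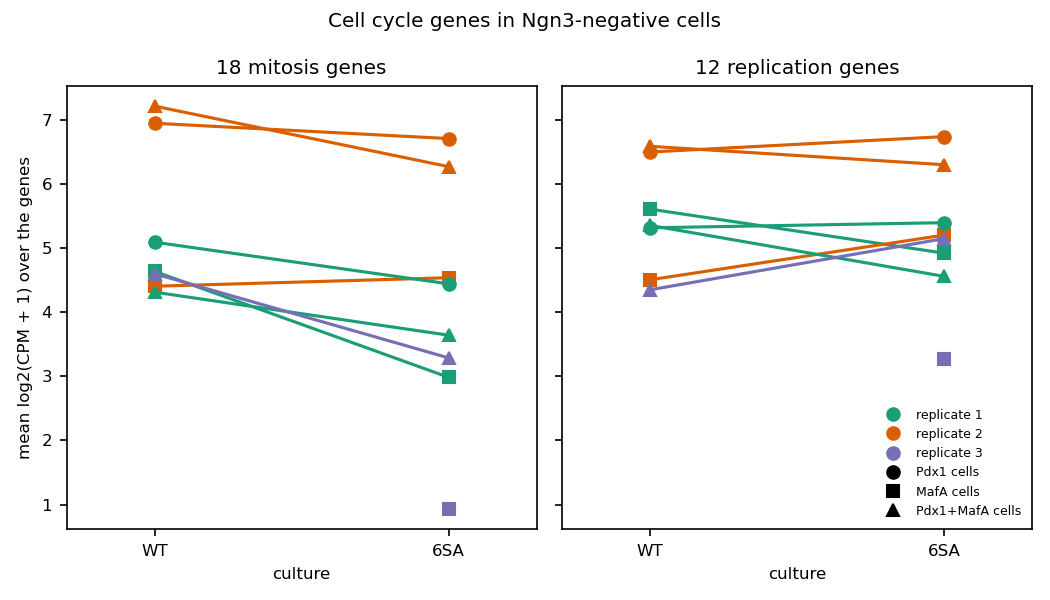
Mean log2(CPM + 1) of 18 mitosis genes (left) and 12 replication genes (right) in each sample, WT and 6SA cultures, with lines joining same-numbered samples of a reporter; colour marks the replicate number and shape the reporter. The mitosis lines go down toward 6SA in 6 of 7 pairs and the replication lines in 3 of 7, and the unpaired point is the 6SA MafA sample of replicate 3, at 0.932 for the mitosis genes.

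Over 29 alternative settings the median of the mitosis genes stayed below 0, between -1.40 without replicate 2 and -0.30 without the WT Pdx1+MafA sample of replicate 2, where 15 of 18 lay below 0. In cells with the Ngn3 reporter the values lay on the other side of 0: there the 18 genes all lay above 0 between 6SA and WT cultures, with a median log2 fold change of 1.85, and 0 were called. The difference between both effects had an unadjusted p under 0.05 for 12 of the 18, beside 2.70% of all genes, and 0 were called. All 30 cell cycle genes were lower in Ngn3-positive than in Ngn3-negative cells, with a median log2 difference of -2.85. In pools of 50 cells, fewer dividing cells and less RNA per cell cannot be told apart.

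Genes that peak in mitosis commonly carry the element TTTGAA near their start site. A different share in the mitosis and the replication genes can thus follow from which genes were placed in each part. That division was made after the values were seen. The promoter sequences are shown to describe these genes. They compare no cultures, and their link to the difference between cultures was not tested. RefSeq promoters (GRCm38.p6, 250 bases before to 50 after the start) were found for 14 of the 18 mitosis genes and 10 of the 12 replication genes. TTTGAA, searched on both strands, was in 10 of the 14 mitosis promoters (71.4%), in 1 of 11 promoters of the replication genes (9.09%) and in 1884 of 15217 promoters of all genes tested (12.4%). Within 50 bases of the start site it was in 9 of 14 (64.3%) and in 3.10% of all. The following matches, with TTTGAA in capitals and each read along its gene's own strand, are from 7 mitosis genes, with the Mcm2 match for contrast:
Cdk1, chr10:69352912-69352937, minus strand: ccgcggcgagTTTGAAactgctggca
Ccnb2, chr9:70421535-70421560, minus strand: cggcgcggtaTTTGAAtcgcggaccg
Cenpf, chr1:189688069-189688094, minus strand: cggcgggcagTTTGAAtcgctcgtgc
Cdc20, chr4:118437346-118437371, minus strand: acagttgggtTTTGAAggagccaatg
Plk1, chr7:122159455-122159480, plus strand: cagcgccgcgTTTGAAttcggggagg
Aurka, chr2:172370523-172370548, minus strand: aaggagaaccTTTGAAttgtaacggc
Mki67, chr7:135716462-135716487, minus strand: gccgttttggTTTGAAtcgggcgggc
Mcm2, chr6:88898835-88898860, minus strand: ggctcagcctTTTGAAagctgtgggc
The Cdk1 match begins 15 bases before the start site, that of Cdc20 18 bases before, that of Mki67 98 and that of Mcm2 70 bases before, whereas those of Ccnb2, Cenpf, Plk1 and Aurka lie after the start. These are matches of letters and not measured binding, and the log2 fold changes of Cdk1 (-0.32), Plk1 (-0.30) and Cdc20 (-0.91) are given for members with the match; the differences among them were not tested.

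**Figure D5:**
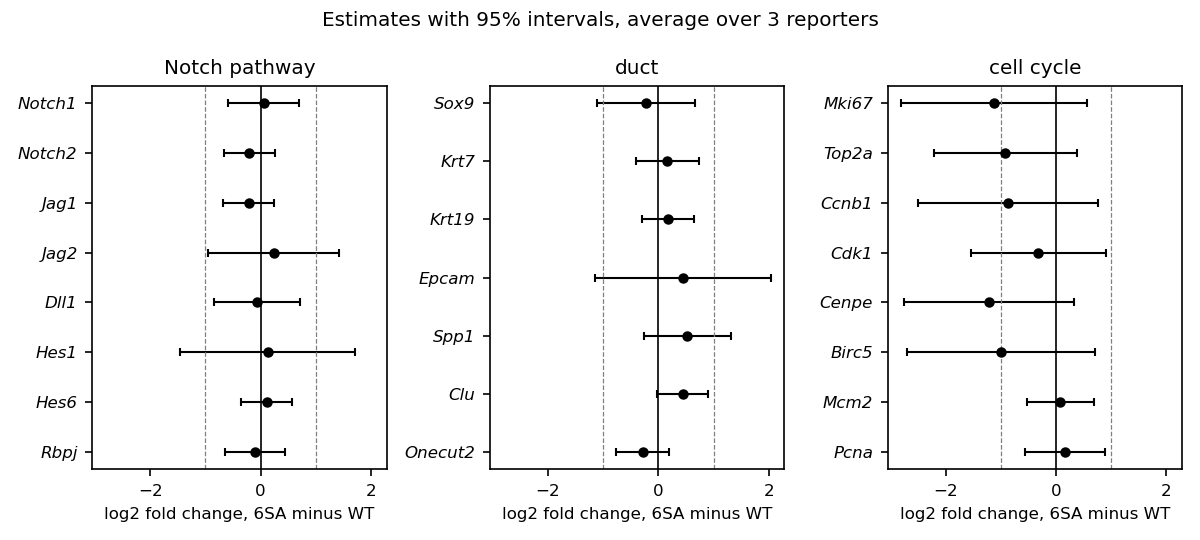
Log2 fold change of 6SA minus WT, averaged over the 3 reporters, with its 95% interval for selected Notch, duct and cell cycle genes; dashed lines mark 2-fold. Intervals of Jag1, Notch2 and Hes6 lie inside 2-fold in both directions, that of Hes1 runs from -1.45 to 1.72, and the mitosis genes lie left of 0 with intervals that cross it.

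Glycolysis and hypoxia genes leaned higher in 6SA cultures. Of 20 genes edgeR called 0, 16 lay above 0, and the median log2 fold change was 0.23 (0.20 without the 6SA MafA sample of replicate 3). The list mean was higher in 6SA in 6 of 7 pairs, and its median stayed positive over 29 settings, between 0.17 and 0.41. The glycolytic genes Aldoa (985 ± 166 and 788 ± 118 CPM, 0.35) and Ldha (788 ± 136 and 677 ± 166 CPM, 0.24) had the highest mean CPM of the list. Car9, a carbonic anhydrase induced by hypoxia, was at 237 ± 128 and 177 ± 85.5 CPM (0.46), and Bnip3, a mitophagy receptor gene, at 18.7 ± 8.31 and 12.6 ± 6.39 CPM (0.61). Both were higher in all 7 pairs, beside 1.66% of all genes. Vegfa, the angiogenic growth factor, lay on the other side: it ranged from 8.06 to 26.2 CPM in 6SA samples (median 18.9) and from 12.2 to 47.8 CPM in WT samples (median 18.8). The log2 fold change was -0.83 (interval -1.71 to 0.05), and -0.86 with the replicate block at an unadjusted p of 0.00217. DESeq2 with the replicate block called Vegfa lower in 6SA (-0.89, adjusted p = 0.0366).

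Cholesterol synthesis genes leaned lower. Of 24 genes 0 were called, 17 lay below 0, and the median was -0.17 (-0.14 without the 6SA MafA sample of replicate 3), below 0 in each of 29 settings from -0.28 to -0.02. Hmgcs1, the synthase at the start of the pathway, was at 172 ± 58.3 and 214 ± 59.8 CPM (-0.28), Msmo1 at 227 ± 87.8 and 264 ± 77.8 CPM (-0.18), and Lss, which closes the sterol rings, at 37.9 ± 19.1 and 58.8 ± 26.0 CPM (-0.58). Lower in 6SA in all 7 pairs were 3 of the 24, among them Insig1 and Stard4, beside 1.06% of all genes, and Acat2 was higher in all 7, beside 1.66%. The interval excluded a 2-fold difference for 16 of the 24.

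Interferon genes followed single samples. Of 34 listed genes 32 were tested, 0 were called and the median was 0.00 (-0.05 without the 6SA MafA sample of replicate 3). Ifit1, an antiviral gene induced by interferon, held 52.3 CPM in the 6SA Pdx1+MafA sample of replicate 2 and 61.3 CPM in the WT MafA sample of replicate 2, and at most 2.61 CPM elsewhere. Cxcl10, an interferon-induced chemokine, held 417 CPM in that same 6SA sample and 104 CPM in the 6SA MafA sample of replicate 3. The highest WT sample held 37.5 CPM of Cxcl10. Without a filter on low counts edgeR called Cxcl10 higher in 6SA (1.502, adjusted p = 0.0176). In that setting calls within single populations went both ways. Ifit1 and Rsad2 were called lower in MafA cells (-9.47 and -6.12) and higher in Pdx1+MafA cells (10.5 and 10.9). The antigen presentation genes B2m (966 ± 691 and 965 ± 200 CPM) and H2-K1 (383 ± 73.0 and 336 ± 87.2 CPM) had log2 fold changes of -0.12 and 0.21.

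The other lists held no gene called by edgeR and stayed near the median of all genes. The median log2 fold change was -0.10 over 25 inflammatory genes, -0.01 over 16 gastric and mucous genes, 0.04 over 22 immediate early and stress genes, -0.01 over 20 p53 targets, 0.16 over 20 genes of endoplasmic reticulum stress, -0.03 over 25 Wnt genes, -0.04 over 18 YAP genes and -0.04 over 22 BMP and TGF-beta genes. Without the 6SA MafA sample of replicate 3 these medians lay between -0.10 and 0.09, and that of endoplasmic reticulum stress was 0.02, with 9 of 20 genes below 0. Lcn2, encoding lipocalin 2, was at 11479 ± 8835 and 10912 ± 3045 CPM, and Cxcl5, a neutrophil chemokine gene, at 3736 ± 2014 and 3912 ± 1286 CPM. The mucin gene Muc1 was at 800 ± 152 and 697 ± 180 CPM, Ctse at 159 ± 35.6 and 116 ± 50.5 CPM, and the immediate early genes Fos and Atf3 at 3463 ± 1034 and 3162 ± 766 CPM and at 1728 ± 630 and 1402 ± 264 CPM. The p53 targets Btg2 and Plk2 had log2 fold changes of 0.21 and 0.16, the stress genes Hspa5 and Xbp1 0.29 and 0.37, and the Wnt targets Cd44 and Ccnd1 -0.03 and -0.04. Ccn1 and Ankrd1, targets of YAP, were at 0.30 and 0.34, Id2 and Tgfb3 at 0.43 and -0.05. Of these genes with an interval, none passed the adjusted threshold. The interval of Cd44 (-0.44 to 0.38) excluded a 2-fold difference. So did those of other genes, with 12 of the 25 Wnt genes and 15 of the 20 p53 targets doing so.

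The Y-linked gene Eif2s3y was expressed in all 15 samples, at 148 ± 21.0 CPM in 6SA and 111 ± 19.3 CPM in WT samples (0.41, interval 0.01 to 0.80), and Ddx3y at 90.7 ± 22.1 and 81.6 ± 36.4 CPM (0.17). Eif2s3y was higher in 6SA in all 7 pairs, with an unadjusted p of 0.0446 that did not pass the adjusted threshold.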

How the data were processed

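Pools of 50 sorted cells were sequenced after a Smart-seq type preparation with Nextera XT libraries. The values are raw counts per gene, deposited by the authors: reads were aligned with GSNAP to mm10 and assigned to Ensembl genes with HTSeq (version 0.5.3p3), as the submitters' processing notes and the study's methods say. The strand setting is not given in the sources used here, so reads of overlapping or antisense genes cannot be told apart. The table holds 46078 genes and 92 spike-ins. Reads that met no feature were 8.69% to 20.3% per library and stayed out of totals and tests, and 0 columns of samples were left unmapped.

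Libraries were kept with over 1000000 gene counts, over 10000 detected genes and under 25% spike-in counts (58 of 61 libraries, all 29 used here), and technical repeats were summed. Genes were required to be detected in 5 or more of the 29 libraries and to vary in log2(CPM + 1) by more than 0.001, which left 20168. They were compared with edgeR (version 4.0.16, TMM scaling, trended dispersion, quasi-likelihood F test) in R 4.3.3, with 1 mean for each of 6 groups over the 15 samples. The 3 differences within a reporter were averaged with equal weight. A gene was called at a Benjamini-Hochberg adjusted p under 0.05. Intervals are 95% and are given only where every group has a count. The standard error behind them is the log2 fold change over the root of F, and for Hes1 with the block, where that ratio is not defined so near 0, it comes from the information of the fit. Means are given ± SD over 8 6SA and 7 WT samples, and in each pair of values 6SA comes first. DESeq2 (version 1.42.0), other scalings and filters, a replicate block, sums over reporters and omission of each sample were alternatives. The procedure was tested on simulated data. Gene symbols and positions were matched by Ensembl ID for 45229 genes, with positions from the GENCODE vM21 annotation of GRCm38, and promoter sequences came from RefSeq.

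Samples with the same number in 6SA and WT cultures deviated together from their group means over 5000 genes, with r between 0.261 and 0.808 (median 0.572) in 7 pairs, each above 0.1. The numbers come from the labels, and the pairing was taken from this check. In groups of 2 samples the deviations mirror each other, so both Pdx1 pairs share r = 0.808. The 7 pairs are thus not separate checks, and pairs of the same number may share their cultures across the reporters. Samples of unlike number were not correlated, so a pair cannot be told apart from a replicate or passage effect shared by the reporters.

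The genes named are the 3 reprogramming factors, 10 genes in each direction ranked by p, the 2 members of each list with the highest mean CPM, and genes named as described after their values were seen, which comprise the other members of the lists and the 5 without overlap. The members and lists were chosen with earlier results of these data known, so that the lists are no independent support. Values of some single members of the lists are not reported here.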

Additional observations from a re-analysis of the deposited data

Results flagged for a closer look

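A sample was set apart where it lay far from the others of its culture by Dixon's criterion. Of 50 sets of samples examined 5 met it, and chance alone marks about 1 in 20. The mean log2(CPM + 1) of the Notch genes was lowest, at 2.81, in the WT Pdx1+MafA sample of replicate 3, where the next WT sample was at 3.20. It was the only WT sample of replicate 3. The 3 samples of that replicate, from both kinds of culture, lay between 2.71 and 2.81, and replicates 1 and 2 between 3.14 and 3.42. The interferon and antigen presentation genes were highest, at 4.08, in the 6SA Pdx1+MafA sample of replicate 2, where the next 6SA sample was at 3.36. Neurog3 was highest among WT samples, at 0.643 CPM, in the Pdx1+MafA sample of replicate 2, which rests on 4 counts, and the next was at 0.212 CPM. Mafa was highest among 6SA samples, at 2.92 CPM, in the MafA sample of replicate 3 (12 counts), with the next at 1.298 CPM. Among WT samples Mafa was highest, at 3.89 CPM, in the Pdx1+MafA sample of replicate 3 (35 counts), with the next at 0.872 CPM.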

How the results depend on the processing

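With the replicate block, which takes same-numbered samples as belonging together, edgeR called 0 genes in each comparison, as without it. Under 29 alternatives 26 left the average over the reporters at 0 genes, and for Pdx1 cells 25 of 25 did. DESeq2 called 2 genes in MafA cells, 1 in Pdx1+MafA cells and 5 for the difference between cells with and without the Ngn3 reporter. Without a filter on low counts (27045 genes) edgeR called 9 genes in the average, 12 in MafA cells, 11 in Pdx1+MafA cells and 15 between reporters, and the 9 included Cxcl10, Cybb and AA474408. DESeq2 with the replicate block, chosen after seeing the data, called 53, of which 35 were higher. Leaving out samples gave 0 to 7 called genes in the average, 0 to 4 in MafA cells, 0 to 3 between reporters and 0 to 4 for cells with against without Ngn3, and each upper value came without replicate 1. Without the WT MafA sample of replicate 1, 1 gene was called in MafA cells. Counts summed over reporters within a culture and number (3 against 3) gave 0 called genes and 135 at an unadjusted p under 0.05, and 0 and 533 with the replicate block. The cause of these shifts was not tested. Of the 65 genes named by rule 42 kept their sign in every alternative that tested them (28 or 29 for each gene). In the average over the reporters, 3 (AA474408, Cybb and Depdc7) were called in any alternative. Between 1 and 10 CPM few genes had an interval that excluded a 2-fold difference.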

Other observations

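Genes with no count in one kind of culture were unevenly divided. There were 57 tested genes with 0 counts in all 7 WT samples and 6 with 0 counts in all 8 6SA samples, while the 6SA samples held 92525468 counts and the WT samples 56682735. The part of that difference in depth was not tested. Of the 57 genes, 47 had counts in 4 or more 6SA samples, and of the 6, 6 had counts in 4 or more WT samples.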
